A study of Homo sapiens with 24 samples.

Results

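The DNA glycosylases other than OGG1 and MUTYH, together with the nucleotide pool enzyme NUDT1, were examined for 8-oxoguanine (OG) over their own genes. The 9 genes were NTHL1, NEIL1, NEIL2, NEIL3, UNG, SMUG1, TDG, MBD4 and NUDT1, taken by name and not by any measured value. For each gene, all 1 kb bins over the gene body and 5 kb on either side were taken, which gave 251 bins of 2835235 in the table and 9 windows of 19703 protein-coding gene windows. No bin of the 9 windows was missing. The assay was OG-seq, in which OG in fragmented DNA is labeled, pulled down and sequenced beside input DNA. It was run in HAP1, a near-haploid human leukemia-derived cell line, of 4 genotypes: WT, MUTYH-/, OGG1-/ and MUTYH-/ X OGG1-/ (DKO). The knockouts were CRISPR-Cas9 clones, and per the study's methods both DKO clones were derived from an OGG1-/ clone. The table held 3 columns per genotype. The column names gave the genotype and a number but not the clone or experiment, so p-values measured the spread between columns. The 3 OG samples of each genotype came from only 2 clones. With 1 sample per column, 2 of the 3 columns of a genotype share a clone, and the columns are not 3 independent clones.

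Base excision repair begins when a DNA glycosylase flips a damaged base out of the helix and cuts its bond to the sugar, after which an AP endonuclease, a polymerase and a ligase restore the strand. OGG1 removes OG opposite cytosine and MUTYH removes adenine opposite OG. The other glycosylases mostly take different substrates, and NUDT1 (also called MTH1) hydrolyzes the oxidized nucleotide 8-oxo-dGTP before it can be built into DNA. OG forms at guanine, the most easily oxidized base, and guanine-rich DNA that can fold into a G-quadruplex (G4) has been a center of interest for OG and its repair, including in the NTHL1 promoter.

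The guanine runs of these genes were therefore read first. A G4 motif was taken as 4 runs of at least 3 G separated by loops of 1 to 7 bases of any kind (GGG, loop, GGG, loop, GGG, loop, GGG), on either strand, with motifs on 1 strand counted without overlap. Such a motif lay in 45 of the 251 bins (17.9 %) and in 9.70 % of all bins. NTHL1 held 19 motifs, NEIL1 17 and NUDT1 14, against 7 in NEIL2, 6 in UNG, 5 in SMUG1, 2 each in NEIL3 and MBD4 and 0 in TDG. The motif outside exons nearest to the start site is shown for 7 of the 8 genes with a motif (that of NEIL2 is not shown here), because the position of guanine runs was compared with the level of the bin around it. Sequences are from GRCh38, 5′ to 3′ on the guanine-rich strand, with the runs of G in capitals.
NTHL1, chr16:2048146-2048166, minus strand: GGGcgcGGGtgaGGGcccGGG
NEIL1, chr15:75345871-75345894, plus strand: GGGGatgaagtGGGtGGGagaGGG
NEIL3, chr4:177309815-177309833, plus strand: GGGcGGGGcctGGGcGGGG
UNG, chr12:109097826-109097851, plus strand: GGGccGGGGctaGGGGGtgaaGGGGG
SMUG1, chr12:54191159-54191188, minus strand: GGGttccctGGGGtggatGGGcttataGGG
MBD4, chr3:129439499-129439520, minus strand: GGGagactGGGGGGGagccGGG
NUDT1, chr7:2241933-2241961, minus strand: GGGccggcGGGGccgtGGGGaggccGGGG

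The NTHL1 motif lay at -300 bases from the annotated start, that is upstream, and on the strand of the gene. Its bin had a level of 2.03 ± 1.68 (SD over 12 columns), where the level is the value of a bin divided by the mean of its column, so that the genome mean is 1. The bin of the NEIL1 motif, at -1084 bases, had 3.02 ± 2.54. The NEIL3 motif, at -59 bases from its start, was in a bin of only 0.667 ± 1.40. The MBD4 motif was in the highest bin of its window, at 2.40 ± 1.87. The other 3 bins lay between, at 1.45 ± 1.05 for UNG, 1.58 ± 1.60 for NUDT1 and 1.83 ± 1.26 for SMUG1. With SDs of 1.05 or more, these bins could not be ranked.

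Over all 9 windows, the 45 bins with a motif had a level of 2.09 ± 0.317 and the 206 bins without one had 1.44 ± 0.140. Bins with a motif were also higher over the whole genome, at 1.25 ± 0.0882 against 0.973 ± 0.00947. In the 9 windows, the bins with a motif also had more GC, 56.9 % against 43.9 %. Without the NEIL1 window, the level was 1.61 ± 0.253 in 34 bins with a motif and 1.32 ± 0.128 in 196 bins without. Compared with all bins of the genome of the same GC content, these 34 bins were higher by 0.0455 ± 0.208 and the 196 bins without a motif by 0.179 ± 0.131. Over the whole genome this difference was -0.0750 for bins with a motif and 0.00814 for those without.

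The level of the whole windows differed between the genes. NEIL1, which removes oxidized pyrimidines and ring-opened purines, had the highest level, at 3.64 ± 0.785 (SD, n = 12 columns). It was in the 99.9th percentile of the gene windows. NTHL1, which also removes oxidized pyrimidines, followed with 1.98 ± 0.432 (97.6th percentile), and NUDT1 with 1.89 ± 0.561 (95.6th). NEIL3, a glycosylase of single-stranded and telomeric DNA, was the lowest at 0.930 ± 0.187 (20.2nd).

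**Figure D1:**
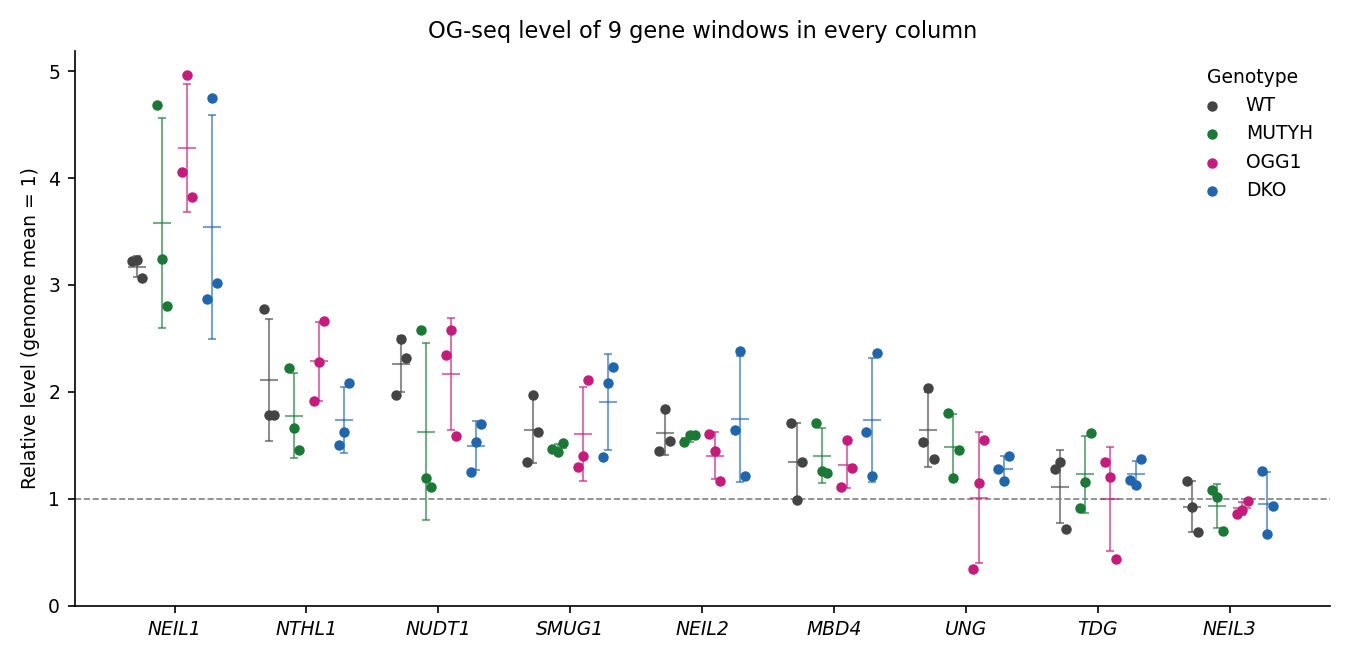
Relative level of OG (y axis, value divided by the column mean, genome mean 1, dashed line) in the 9 gene windows, with 1 point per column, colored by genotype, and bars for the mean ± SD of 3 columns. NEIL1 lies above the other 8 genes, from 2.804 to 4.96, NEIL3 lies around 1, and the genotypes overlap in most genes.

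In WT, the NEIL1 columns were at 3.22, 3.23 and 3.06. In MUTYH-/ they were at 4.68, 3.25 and 2.804, in OGG1-/ at 4.05, 4.96 and 3.82, and in DKO at 2.87, 4.75 and 3.02. All 12 columns were thus well above the genome mean, with the 3 WT columns closest together. For NTHL1, the WT columns were at 2.77, 1.78 and 1.78, the MUTYH-/ columns at 2.22, 1.66 and 1.46, the OGG1-/ columns at 1.91, 2.28 and 2.66 and the DKO columns at 1.504, 1.63 and 2.09. Each of these was also above 1, and the genotypes overlapped. For NUDT1, the WT columns were at 1.98, 2.49 and 2.32, those of MUTYH-/ at 2.58, 1.20 and 1.11, those of OGG1-/ at 2.34, 2.58 and 1.58, and those of DKO at 1.25, 1.53 and 1.70. The 3 DKO columns were below the 3 WT columns, and the MUTYH-/ columns were split.

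The glycosylases for uracil and for mismatched or modified pyrimidines lay between. SMUG1, which removes uracil and hydroxymethyluracil, had 1.66 ± 0.341, with the lowest column at 1.30, the median at 1.49 and the highest at 2.23. NEIL2, which works on oxidized pyrimidines in open DNA such as a transcription bubble, had 1.58 ± 0.311 and ranged from 1.16 over a median of 1.57 to 2.38. MBD4, which binds methylated CpG and removes thymine or uracil opposite guanine, had 1.45 ± 0.371 (0.984, median 1.32, 2.37). UNG, the main uracil glycosylase, had 1.36 ± 0.414 with a median of 1.38. Its range was the widest relative to its mean, from 0.342 in an OGG1-/ column to 2.04 in a WT column. TDG, which removes thymine from G:T mismatches and oxidized methylcytosines, had 1.14 ± 0.317 (0.439, median 1.19, 1.61), and its lowest column was also from OGG1-/. NEIL3 ranged from 0.672 over a median of 0.925 to 1.26.

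Whether a window was above the genome mean was tested by the exact two-sided sign-flip permutation test over the 12 columns, run on all 19703 gene windows and adjusted over them by Benjamini-Hochberg. The smallest p that 12 columns allow, before adjustment, is 0.000488. NTHL1, NEIL1, NEIL2, SMUG1 and NUDT1 were above 1 in 12 of 12 columns (exact sign-flip test, adjusted p = 0.00133 in each). MBD4 and UNG were above 1 in 11 of 12 columns (adjusted p = 0.00212 and 0.0221). TDG (9 of 12 columns, adjusted p = 0.181) and NEIL3 (4 of 12, adjusted p = 0.259) did not pass. Thus 7 of the 9 genes were above 1, beside 59.2 % of all gene windows.

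In the order of levels, only NEIL1 and NTHL1 differed from their neighbor, by 1.66 ± 0.779 (12 of 12 columns, exact sign-flip test, adjusted p = 0.00391 over the 8 pairs of neighbors). The 7 other pairs did not pass, with unadjusted p from 0.0830 for TDG above NEIL3 to 0.586 for NTHL1 above NUDT1. Over all 36 pairs of genes, 21 passed. These were the 8 with NEIL1 and 13 of the 28 without it. NTHL1 was above NEIL3 by 1.05 ± 0.402 in 12 of 12 columns (adjusted p = 0.00146 over 36 pairs), and above TDG, UNG and MBD4. NUDT1 was above NEIL3 by 0.958 ± 0.599 in 11 of 12 columns (adjusted p = 0.00251). The upper and lower ends of the order were therefore apart, while its middle could not be ordered.

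The levels followed the base composition of the windows. NTHL1 had 60.7 % GC, NUDT1 57.1 % and NEIL1 55.1 %, while NEIL3 had 37.9 % and TDG 40.4 %. SMUG1 (48.6 %), NEIL2 (47.7 %), UNG (47.5 %) and MBD4 (43.3 %) lay between, and all bins of the genome had 40.9 %. Across the 9 genes, Pearson's r of level with GC was 0.665 and Spearman's rho 0.933, and without NEIL1 r was 0.949 over 8 genes. The points share the same 12 columns, so these values are a description.

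**Figure D2:**
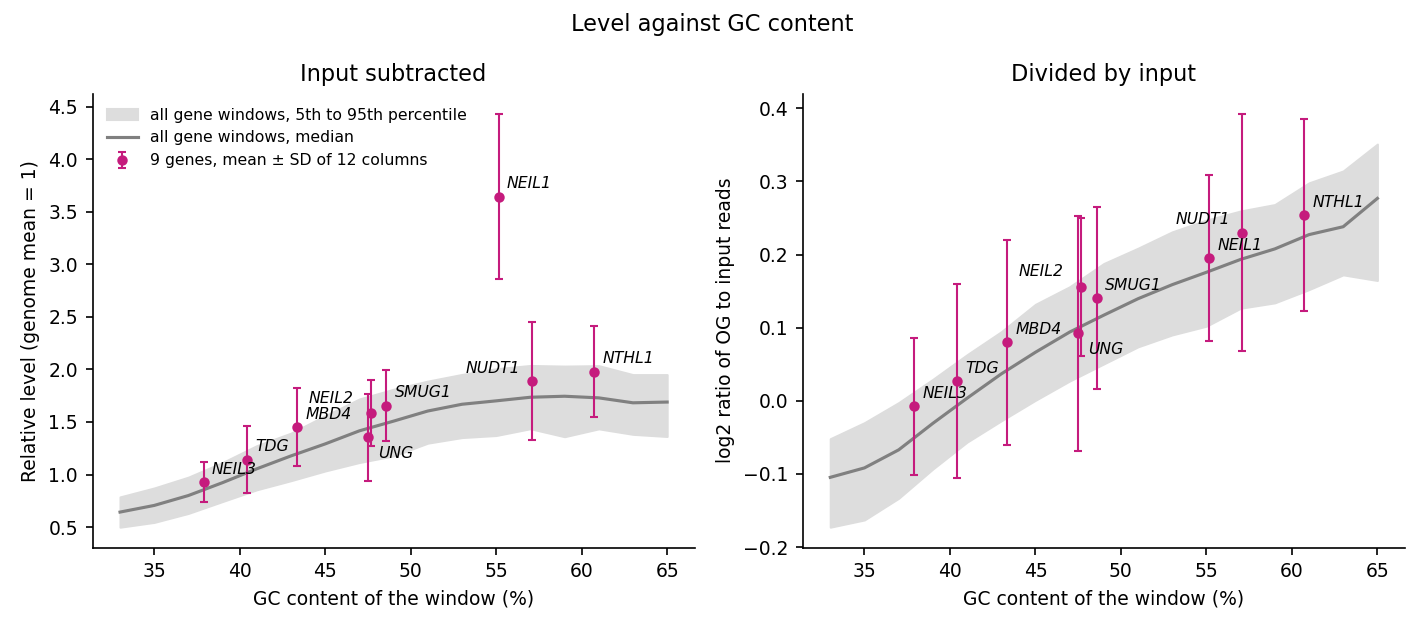
GC content of the window in percent (x axis) against the relative level (left) and the log2 ratio of OG to input reads (right), with the mean ± SD of 12 columns for the 9 genes and the median and the 5th to 95th percentile of all gene windows in grey. NEIL1 lies far above the grey band on the left and inside it on the right. MBD4 lies just above the band on the left and inside it on the right. The remaining genes lie inside the band in both panels.

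Each window was then compared with the mean of all bins of the same GC content, in 20 strata in each column. NEIL1 was above this expectation of 1.56 by 2.08 ± 0.645 in 12 of 12 columns (exact sign-flip test, adjusted p = 0.0103 over all gene windows). NTHL1 was above its expectation of 1.64 by 0.343 ± 0.363 in 10 of 12 columns (adjusted p = 0.0317). MBD4 was above 1.15 by 0.2997 ± 0.372, also in 10 of 12 (adjusted p = 0.0497). These were 3 of the 9 genes, beside 11.5 % of all gene windows. The gene windows of 60 % to 62 % GC, where NTHL1 lies, had a median level of 1.73 and a 95th percentile of 2.04. The other 6 genes did not pass. Their differences ran from -0.0136 ± 0.428 for UNG to 0.255 ± 0.449 for NUDT1, with adjusted p of 0.143 or more.

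NEIL1 stood apart in its input. The deposited value is OG reads minus scaled input reads, and both were recovered as whole numbers from the table. The input of the NEIL1 window was 2.35 times the genome mean, from 2.07 to 2.63 in the 12 columns, whereas that of the other 8 windows was from 0.958 for NEIL3 to 1.20 for SMUG1. NEIL1 lies in a segment of chromosome 15 (chr15:60800001-89400000) with an input of 2.10 times the mean, while the rest of the chromosome had 1.01. After subtraction of input, DNA present in more copies gives a higher value, and the whole segment had a level of 2.32 ± 0.129. NEIL1 was above this by 1.33 ± 0.688 in 12 of 12 columns (exact sign-flip test, p = 0.000488). The NEIL1 window had 55.1 % GC and the segment 43.7 %.

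As a measure in which the number of copies cancels, the log2 ratio of OG to input reads was used, relative to the whole genome. On this scale NEIL1 was no longer first. NTHL1 had 0.25 ± 0.13, NUDT1 0.23 ± 0.16, NEIL1 0.20 ± 0.11, NEIL2 0.16 ± 0.09 and SMUG1 0.14 ± 0.12, and these 5 were above 0, beside 46.9 % of all gene windows (exact sign-flip test over 12 columns, adjusted p = 0.00385 or less over all windows). UNG had 0.09 ± 0.16, MBD4 0.08 ± 0.14, TDG 0.03 ± 0.13 and NEIL3 -0.01 ± 0.09, and these 4 did not pass. Gene windows of 42 % to 44 % GC, where MBD4 lies, had a 95th percentile of 0.09. Those of 60 % to 62 %, where NTHL1 lies, had one of 0.30. The log2 ratio of NEIL1 minus that of NTHL1 was -0.06 (exact sign-flip test, p = 0.197). Of the 36 pairs of genes, 6 passed on this scale, and each set NEIL3, TDG or MBD4 below a higher gene. Pearson's r of the log2 ratio with GC content was 0.978 over the 9 genes, again as a description. Compared with its segment (0.04 ± 0.02), NEIL1 was higher by 0.15 ± 0.10 in 12 of 12 columns (exact sign-flip test, p = 0.000488).

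Within the windows, the start sites did not stand apart. The bins that touch the 1000 bp upstream of the start, 2 in each gene, were compared with the other bins of the window. In NTHL1, the start bins had 1.77 ± 0.738 and the rest 2.003 ± 0.473. In NEIL1 they had 2.78 ± 2.29 against 3.73 ± 0.715, and in NUDT1 1.44 ± 0.824 against 1.94 ± 0.609. The start bins were lower in 7 genes and higher in UNG (1.48 against 1.34) and TDG (1.30 against 1.13). None of the 9 differences passed the exact sign-flip test (lowest adjusted p = 0.402), and none had an unadjusted p under 0.05. With the bins that touch the 1000 bp on both sides of the start, the difference was -1.08 in NEIL1 (exact sign-flip p = 0.0234) and -0.802 in SMUG1 (exact sign-flip p = 0.0176). These were the 2 genes with an unadjusted p under 0.05, and the lowest adjusted p was 0.105.

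**Figure D3:**
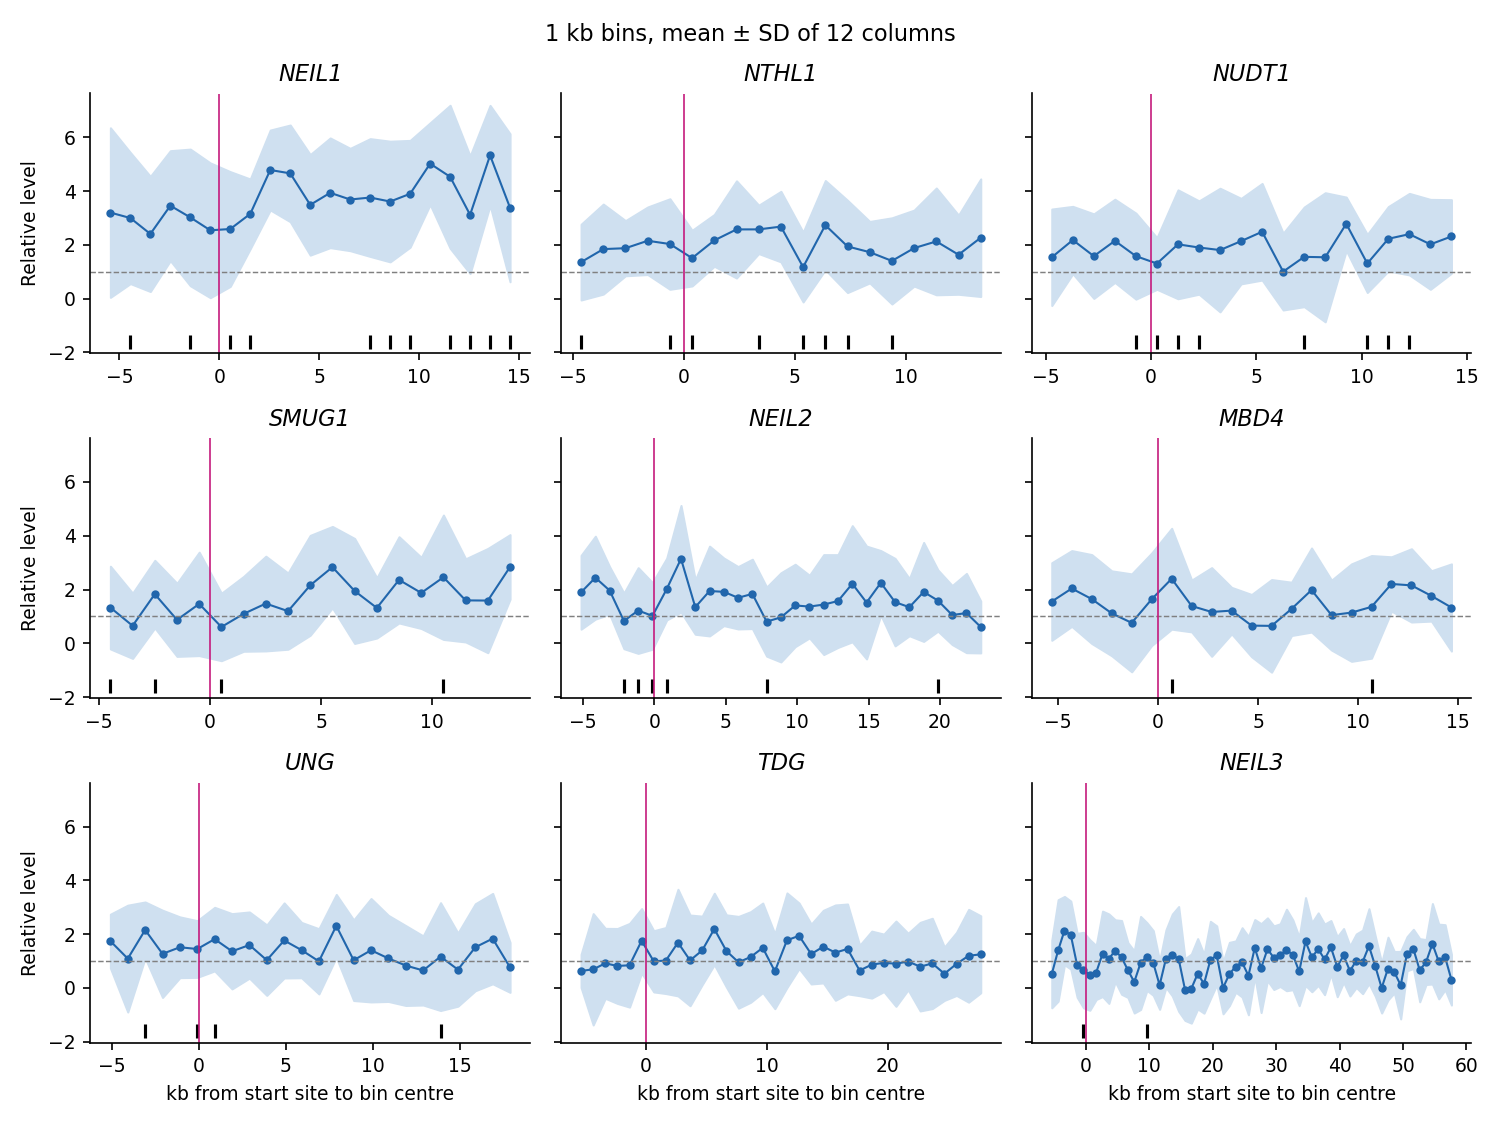
Relative level of the single 1 kb bins (y axis) by distance of the bin center from the annotated start site in kb (x axis, in the direction of transcription, magenta line at 0), as the mean over 12 columns with a band of ± 1 SD, and ticks under bins with a G4 motif. NEIL1 runs above 2 along its whole window, from 2.40 to 5.33, while the means of the bins of the other genes run from -0.0578 to 3.14.

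The highest bin of each window lay at different places. In NEIL1, it was chr15:75360001-75361000, at 5.33 ± 1.86, 13.5 kb from the start and over the neighboring gene MAN2C1. In NTHL1 it was an intronic bin 6.37 kb from the start, at 2.73 ± 1.66, and in NUDT1 an exonic bin, also over the neighbor SNX8, at 2.78 ± 0.992. NEIL2 (3.14 ± 1.98) had its highest bin in an exon 1.86 kb from the start, SMUG1 (2.84 ± 1.20) in an exon 13.5 kb from it, and UNG (2.31 ± 1.17) in an exon 7.90 kb from it. The highest bin of TDG was intronic (2.20 ± 1.33), and that of NEIL3 lay upstream of the gene at -3.37 kb (2.13 ± 1.27). Even so, at least 1 column in each of these bins fell to a level of 1.49 or below. Of the 251 bins, 186 (74.1 %) had a mean above 1, beside 47.5 % of all bins, and 2 (0.797 %), both in NEIL3, had a mean below 0, beside 2.98 %.

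The study ranked bins on the log2 ratio of OG to input to find OG-enriched bins (OG-EBs), a measure in which copy number cancels. It also kept a bin only when both technical replicates held it, and reported a small number of OG-EBs. Here, bins were first ranked on the input-subtracted level, which rises with copy number. An OG-EB was a bin at or above the 95th percentile of a column, a level of 3.27 to 3.55, in at least 2 of 3 columns. Technical replicates were not used, and 38046 bins of the genome were called in WT, a far larger set than that of the study. In WT, 12 of the 251 bins were OG-EBs (4.78 %), against 1.34 % of all bins. In MUTYH-/ there were 19 (7.57 %, against 1.33 %), in OGG1-/ 26 (10.4 %, against 1.54 %) and in DKO 15 (5.98 %, against 1.3 %). NEIL1 alone held 7, 11, 14 and 10 of these. In the other 230 bins there were 5, 8, 12 and 5 OG-EBs, or 2.17 %, 3.48 %, 5.22 % and 2.17 %. The 12 in OGG1-/ were 5 in NTHL1, 4 in NUDT1, 2 in SMUG1 and 1 in MBD4, and UNG and NEIL3 held none in any genotype. The count was highest in OGG1-/ also among all bins of the genome. With bins ranked on the log2 ratio of OG to input reads (1 added to each), WT had 1 OG-EB in the 9 windows (0.398 %, beside 0.863 % of all bins) and MUTYH-/ had 4 (1.59 %, beside 0.924 %). OGG1-/ had 6 (2.39 %, beside 0.944 %) and DKO had 2 (0.797 %, beside 0.923 %). On this scale none was in NEIL1.

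On the level, 3 bins were OG-EBs in all 4 genotypes, and each was in the NEIL1 window. The bin chr15:75350001-75351000, in an intron 3.54 kb from the start, had a level of 4.66 ± 1.80. The bin chr15:75352001-75353000, over an exon 5.54 kb from the start, had 3.93 ± 2.04. The third was the highest bin of the window, given above. The bin chr15:75357001-75358000, over an exon and MAN2C1, had 5.02 ± 1.52 and was an OG-EB in the 3 knockouts but not in WT. The input of the 3 bins was 2.59, 2.38 and 2.09 times the genome mean, and its part in these calls was not tested bin by bin.

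The knockouts were compared with WT to ask whether loss of OGG1, MUTYH or both changed OG over the genes of the other repair enzymes. No window did at an adjusted p under 0.05 in limma's moderated test on the linear level, fitted to all 19703 gene windows and adjusted over them by Benjamini-Hochberg. This held for 0 of the 9 genes and for 0 % of all windows in MUTYH-/, 0 % in OGG1-/, 0 % in DKO, and 0 % in the F test over the 4 genotypes. At an unadjusted p under 0.05 there were 0 of 9 in MUTYH-/ against 3.54 % of all windows, 2 of 9 in OGG1-/ against 4.74 %, and 1 of 9 in DKO against 4.91 %. In the F test there were 0 of 9, against 5.06 %.

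**Figure D4:**
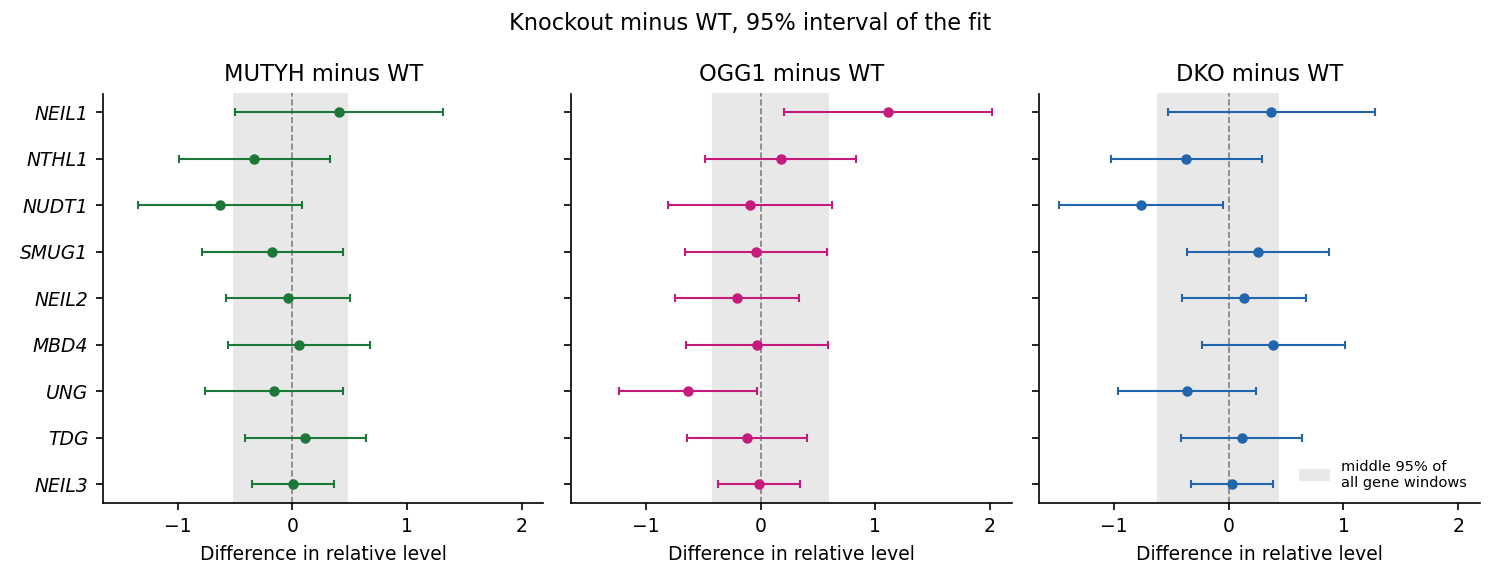
Difference in relative level of each knockout minus WT (x axis) for the 9 genes, with the 95 % interval of the fit over 12 columns, and the middle 95 % of all 19703 gene windows in grey. The interval excludes 0 for NEIL1 and UNG in OGG1-/ and for NUDT1 in DKO, and none of these passed after adjustment.

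In OGG1-/, NEIL1 was at 4.28 ± 0.6002 against 3.17 ± 0.0964 in WT, a difference of 1.11 (SE 0.439, 95 % interval 0.202 to 2.01, limma adjusted p = 0.964). The 3 OGG1-/ columns were above the 3 WT columns, and the exact permutation test of 3 against 3 columns gave p = 0.1, the smallest it allows. Columns of OGG1-/ and WT did not overlap in 12.2 % of all gene windows. On the log2 ratio, NEIL1 was at 0.27 ± 0.10 in OGG1-/ and 0.10 ± 0.03 in WT, also without overlap. The segment around NEIL1 was at 2.41 ± 0.0703 in OGG1-/ and 2.31 ± 0.0336 in WT.

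UNG differed by -0.634 in OGG1-/ (SE 0.292, 95 % interval -1.24 to -0.0307, limma adjusted p = 0.964). Its WT columns were at 1.53, 2.04 and 1.37 and its OGG1-/ columns at 0.342, 1.14 and 1.55, so the groups overlapped, and 1 OGG1-/ column was far below the others. Without that column the difference was -0.299, and with each of the other columns left out in turn it ran from -0.901 to -0.437. NUDT1 differed by -0.764 in DKO (SE 0.346, 95 % interval -1.48 to -0.0506, limma adjusted p = 0.9989). The columns, given above, did not overlap, as in 10.2 % of all windows for DKO and WT (exact permutation p = 0.1). NUDT1 in MUTYH-/ differed by -0.632 (SE 0.346, limma adjusted p = 1.00), with 1 MUTYH-/ column, at 2.58, above the WT columns. Without that column the difference was -1.11, the largest in size with 1 column left out, and the smallest was -0.371. No gene was without overlap in MUTYH-/, against 8.35 % of windows.

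For the other genes, the fit gave intervals rather than changes. NTHL1 differed from WT by -0.333 in MUTYH-/ (95 % interval -0.992 to 0.326), 0.174 in OGG1-/ (-0.485 to 0.833) and -0.372 in DKO (-1.03 to 0.287). NEIL3, with the most bins, had the narrowest intervals, at 0.00494 in MUTYH-/ (-0.350 to 0.360), -0.0149 in OGG1-/ (-0.370 to 0.340) and 0.0273 in DKO (-0.327 to 0.382). NEIL2, SMUG1, TDG and MBD4 differed by at most 0.389, which was MBD4 in DKO (-0.231 to 1.01). The median over the 9 genes in MUTYH-/ was -0.0394, beside 0.000782 over all windows. In OGG1-/ it was -0.0425 beside 0.0391, and in DKO 0.113 beside -0.0286. The 3 comparisons share the WT columns. The interaction of the 2 knockouts was also not past the adjusted threshold for any gene (lowest unadjusted p = 0.0782, NEIL1).

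Each window held between 506 and 2455 OG reads per column. The counting SD is the spread that these numbers of reads would give if each read were independent. Sequencing was paired-end, and reads of the same fragment are not independent, so the counting SD may be too low. The SD within genotypes was 1.68 times the counting SD for SMUG1 and 2.76 times for NEIL1, with the others between. For NTHL1, the SD within genotypes was 0.423 and the counting SD 0.211. The 12 columns held from 59599618 to 113912809 OG reads, and 21.97 % to 24.7 % of bins were below 0 in a column. The WT columns had 86150333 OG reads or fewer, below every OGG1-/ column (88183691 or more) and every DKO column (95000987 or more). MUTYH-/ columns ran from 75486027 to 109741838. Depth thus went with genotype in the OGG1-/ and DKO comparisons, and its part was not tested.

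The study took OG-differentially enriched regions (OG-DERs) from counts over genomic features with edgeR. Its thresholds, a log2 fold change of over 0.5 in size and an unadjusted p no higher than 0.01, were applied here to single 1 kb bins, with limma on log2(value + 1). The added 1 shrinks the fold change of low bins, and values below 0 count as 0. Such a fold change is of values after subtraction of input, where it can be far larger than that of the OG reads. In the 251 bins there was 1 OG-DER in MUTYH-/ against 0.622 % of all tested bins, 4 in OGG1-/ against 0.555 %, and 1 in DKO against 0.609 %. At an adjusted p under 0.05, 0 of the 251 bins passed in any knockout. Of all tested bins, 0.0005 % passed it in the MUTYH-/ comparison, 0.00025 % in that of OGG1-/ and 0.00139 % in that of DKO.

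**Figure D5:**
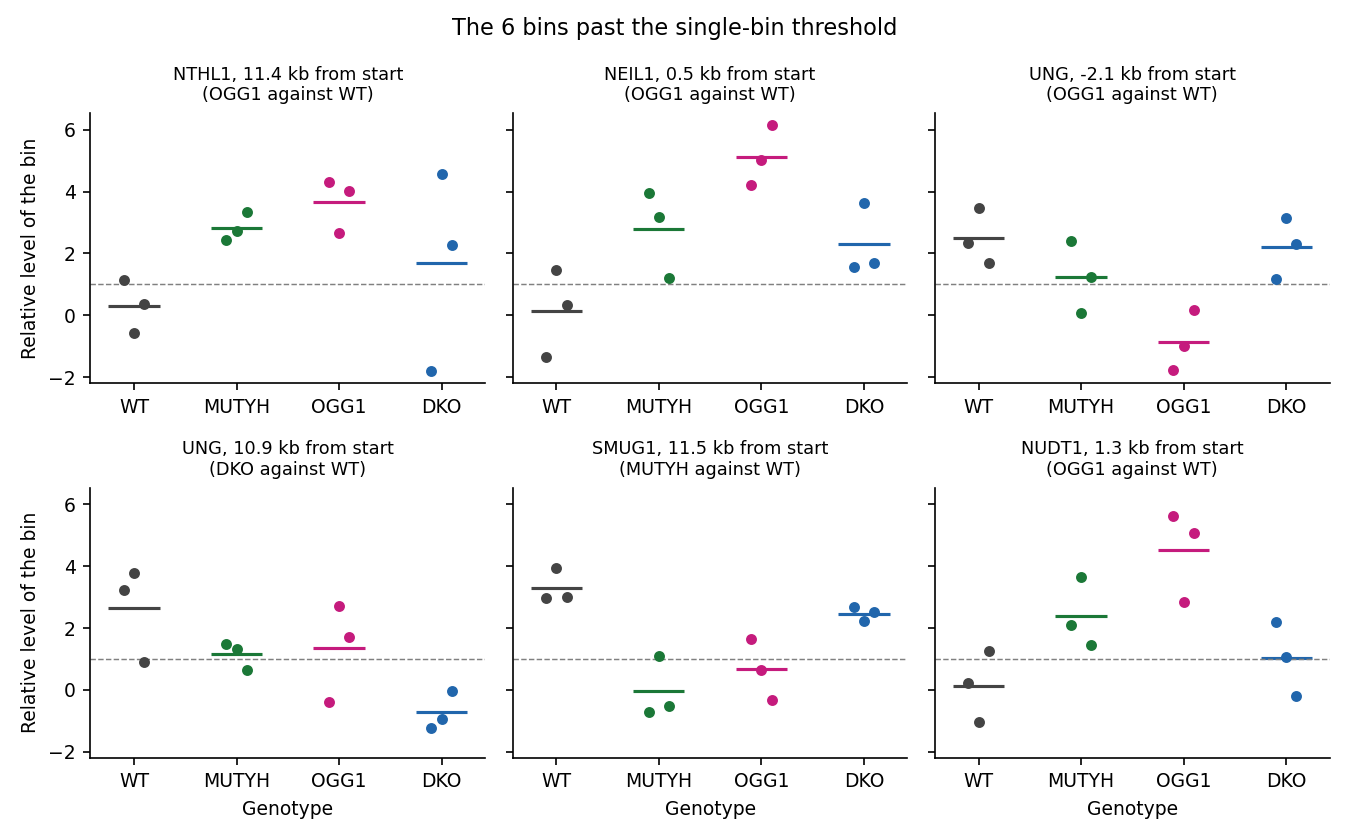
Relative level (y axis) in the 12 columns of the 6 bins past the unadjusted threshold, by genotype (x axis), with a line at the mean of 3 columns. The comparison that passed is named above each panel with the distance of the bin center from the start site. The 3 columns of the named knockout lie apart from the 3 WT columns in each panel, which follows from how the bins were chosen.

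A bin of NEIL1 with its center 0.545 kb downstream of the start (chr15:75347001-75348000, over an exon, 64.6 % GC) was an OG-DER in OGG1-/. Its WT columns were at -1.34, 1.45 and 0.342 and its OGG1-/ columns at 4.196, 5.03 and 6.14 (log2 fold change 3.57). The MUTYH-/ columns were at 3.95, 3.19 and 1.19 and the DKO columns at 1.57, 3.63 and 1.70, so that WT was the lowest genotype. The 2 start bins of NEIL1, next to it, had a WT level of 2.93 and an OGG1-/ level of 2.85 (p = 1 in the exact permutation test). In NUDT1, an exonic bin with a G4 motif 1.27 kb from the start had 0.212, -1.05 and 1.24 in WT and 5.63, 2.84 and 5.07 in OGG1-/ (log2 fold change 3.57). In NTHL1, a bin 11.4 kb from the start, over the neighbor NHERF2, had 1.14, -0.558 and 0.349 in WT and 4.32, 2.67 and 4.03 in OGG1-/ (log2 fold change 3.17).

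In UNG, a bin upstream of the start, at -2.10 kb, had 2.35, 3.47 and 1.69 in WT and -1.76, -0.994 and 0.165 in OGG1-/ (log2 fold change -4.04). An intronic bin of UNG, 10.9 kb from the start, had 3.23, 3.76 and 0.898 in WT and -1.23, -0.926 and -0.0292 in DKO (log2 fold change -4.37). In SMUG1, an intronic bin 11.5 kb from the start had 2.96, 3.93 and 3.01 in WT and -0.715, 1.09 and -0.513 in MUTYH-/ (log2 fold change -3.77). The bins were chosen by these thresholds, so the distance between the knockout and WT columns is a description. None of the 6 passed the adjusted threshold (limma adjusted p = 0.985 or more).

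The other genes of base excision repair and of the nucleotide pool were taken for comparison. A list of 27 such genes held, among others, OGG1, MUTYH, MPG, APEX1, POLB, XRCC1, LIG1, PARP1, FEN1 and DUT. The lowest level was 0.863 for APLF, a scaffold protein, and the median was 1.41 beside 1.27 for all gene windows. MPG, the glycosylase for alkylated purines, had 2.04 at 61.4 % GC, OGG1 had 1.71 at 50.5 % and MUTYH 1.59 at 51.7 %. NTHL1, at 60.7 % GC, had 1.98, close to MPG.

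None of the 27 genes passed the adjusted threshold in any knockout. MUTYH-/ had 1 of the 27 genes at an unadjusted p under 0.05, where 3.54 % of all gene windows were under it. OGG1-/ had 2 such genes, against 4.74 % of windows, and DKO had 3, against 4.91 %. The median difference of the 27 genes was 0.0675 for MUTYH-/, where that of all windows was 0.000782. For OGG1-/ it was 0.0313 against 0.0391, and for DKO -0.0616 against -0.0286. PARP1, which senses strand breaks, had the smallest p in MUTYH-/, with a difference of -0.767 (SE 0.184, limma adjusted p = 1.00), and in OGG1-/, with -0.397 (limma adjusted p = 0.964). At the edited genes, OGG1 differed by 0.163 in OGG1-/ (95 % interval -0.258 to 0.585) and MUTYH by 0.434 in MUTYH-/ (-0.253 to 1.12). The values measure DNA and not expression, so they do not test the knockouts. MPG differed by -0.710 in DKO (-1.47 to 0.0485).

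Among all protein-coding genes outside the 9, GOLGA3 (Pearson's r = 0.935), NOP16 (0.925) and ACAD10 (0.925) had levels most like the mean of the 9 windows over the 12 columns. With 12 columns, 4.90 % of all windows had an r above 0.7. NEIL1, with the largest SD over the columns (0.785), enters the mean of the 9 windows unscaled. The columns differed in depth, and the part of depth or base composition in these r was not tested.

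The windows are given by position on GRCh38, with genes of the GENCODE annotation. NTHL1 (ENSG00000065057.9) was chr16:2034001-2053000, minus strand, in 19 bins with parts of NHERF2 and TSC2. NEIL1 (ENSG00000140398.14) was chr15:75341001-75362000, plus strand, in 21 bins with parts of COMMD4 and MAN2C1. NEIL3 (ENSG00000109674.4) was chr4:177304001-177368000, plus strand, in 64 bins, without another protein-coding gene. UNG (ENSG00000076248.12) was chr12:109092001-109116000, plus strand, in 24 bins with part of ALKBH2. SMUG1 (ENSG00000123415.16) was chr12:54175001-54194000, minus strand, in 19 bins. TDG (ENSG00000139372.15) was chr12:103960001-103994000, plus strand, in 34 bins with parts of GLT8D2 and UQCC6. MBD4 (ENSG00000129071.10) was chr3:129425001-129446000, minus strand, in 21 bins with parts of EFCAB12 and IFT122. NUDT1 (ENSG00000106268.16) was chr7:2237001-2257000, plus strand, in 20 bins with parts of MRM2 and SNX8. The annotated spans of UNG and SMUG1, which include longer transcripts, run beyond these windows. Bins over a neighboring gene were kept, since a bin does not tell which gene the reads belong to.

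NEIL2 (ENSG00000154328.16) was in 29 bins on the plus strand of chromosome 8, from 11764001 to 11793000, without another protein-coding gene.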

How the data were processed

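OG-seq values of 12 columns, 3 for each of 4 genotypes, were taken from a table of 1 kb bins on GRCh38, made from 12 OG and 12 input samples. The values are a score as deposited: the authors trimmed reads with cutadapt 2.8, mapped them with Bowtie2 2.3.5.1, counted them with bedtools, removed blacklisted bins, and subtracted input scaled by signal extraction scaling. Depths are not equalized in it. Each column was divided by its mean. A window was the mean over bins touching the gene body plus 5 kb, and windows of at least 3 bins were kept.

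Whole OG reads and 2 input terms were solved from the values in all but at most 14 bins of each column, checked on simulated data. Dividing by input cancels copy number. Subtracting it does not.

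Gene windows were fitted with limma 3.58.1 (R 4.3.3) on the linear level of all 12 columns, with the number of bins as trend and no block. Bins were fitted on log2(value + 1) after scaling, where above 0 in at least 3 columns. There each bin took the variance of the trend, so its own spread did not enter its p. Both fits were tested on simulated data. Other values were compared with exact permutation tests in Python 3.11.15. Those of windows against the genome mean, the GC expectation or a log2 ratio of 0 were adjusted over all windows. In 100 GC strata and with 1 column left out, the adjustment was over the genes examined only. The authors used edgeR 3.42.4, which was not used here, because the values are not counts. No batch was given for the columns.

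Members, gene lists and tests were chosen with earlier results of these data known. Named genes were all 9 members, of the 27 further repair genes OGG1, MUTYH, MPG and those with the smallest p in each comparison (1 of them is not reported here), the 3 genes most alike over columns, every OG-DER bin, every OG-EB bin of all genotypes and the highest bin of each window. The bin chr15:75357001-75358000 was named after its values were seen. Alternatives changed the scale, scaling, GC correction, window, filter, block and columns used.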

Additional observations from a re-analysis of the deposited data

How the results depend on the processing

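In each of 24 alternatives to the fit of gene windows, 0 of the 9 genes and 0 of the 27 further repair genes passed an adjusted p under 0.05 in any knockout. With the replicate block by column number, 0 windows passed in each comparison. There, 0, 1 and 1 of the 9 genes had an unadjusted p under 0.05 in MUTYH-/, OGG1-/ and DKO. Of all 19703 windows, 635, 853 and 878 were under it. Columns of the same number did not deviate together more than others (r from -0.274 to 0.198 in 18 pairs, above 0.1 in 2), so the numbers were not taken as pairs. Between other numbers, r was from -0.182 to 0.308 in 36 pairs, above 0.1 in 5. Column 1 of MUTYH-/ went with column 2 of DKO (r = 0.308) and column 2 of OGG1-/ (0.244), and the latter 2 with each other (0.198). In NEIL1 each was the highest column of its genotype. The fits and tests did not model such shared deviation. Of 648 differences under an alternative, 61 had the other sign, none of them past the threshold. Many of the 648 could not change. Leaving out a column of a genotype outside the comparison, or adding the block, gives the same difference. The count is thus no measure of how stable the signs are. Of all windows, 3 passed in DKO and 9 in the F test with GC centering, and 1 and 2 with the log2 ratio. With 1 column left out, windows passing ran from 0 to 5 in MUTYH-/, 0 to 2 in DKO, 0 to 3 in the F test and 0 to 3 for the interaction. The cause was not tested.

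Of the neighbors in the order of levels, 2 pairs passed with the gene body only and 0 with the log2 ratio, against 1. With 1 column left out, 1 pair passed each time and 7 to 8 genes were above the genome mean. In 100 GC strata, NTHL1, NEIL1 and MBD4 were also above the expectation (exact sign-flip test, adjusted p = 0.0022, 0.0022 and 0.0264). Both of these counts of genes were adjusted over the genes examined only, not over all windows. MBD4 had an unadjusted p of 0.00879 in 100 strata and 0.00830 in 20 strata (exact sign-flip test). Whether it passes over all windows in 100 strata was not tested.

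OG-DERs in MUTYH-/ were 3 without scaling and 2 with a pseudocount of 5, beside 14853 and 18243 of 2802495 bins tested. Without the filter they were 2, beside 30246 of 2835235. With 1 column left out they ranged over 1 to 6, beside 13993 to 17407 of 2802495. In OGG1-/ this range was 1 to 6, beside 11145 to 15608 of all bins tested. In DKO it was 1 to 4, beside 13288 to 17187. With adjustment there were 0 in MUTYH-/, 0 in OGG1-/ and 0 in DKO. For WT, MUTYH-/, OGG1-/ and DKO, the OG-EBs at the 99th percentile numbered 3, 3, 11 and 5. Of all bins, 0.145 %, 0.145 %, 0.182 % and 0.136 % were called there. With all 3 columns required they numbered 2, 1, 10 and 4, beside 0.102 %, 0.0995 %, 0.140 % and 0.0879 % of all bins. Outside the NEIL1 window, each of these 2 settings left 1 in OGG1-/ and 0 in the other genotypes. Further alternatives were added once the values had been seen. With NEIL1 left out the OG-EBs were 5, 8, 12 and 5, and with bins ranked on the log2 ratio of OG to input reads they were 1, 4, 6 and 2.

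The SE of a difference ran from 0.172 for NEIL3 to 0.439 for NEIL1, and a difference of 1.11 in NEIL1 did not pass the adjusted threshold.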
